A study of Mus musculus with 2 samples.

Results

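Il1b and 9 genes that govern it or work beside it were followed through the cells of 2 mouse spleens. The 10 genes, of 26124 in the deposited tables, are the cytokines Il1b, Il1a and Il18, the sensor gene Nlrp3, the adaptor gene Pycard, the caspase genes Casp1 and Casp4, the pore gene Gsdmd, and the antagonist genes Il1rn and Il1r2. They were picked by symbol, and the choice was made from earlier results of these libraries in which Il1b levels differed between cell classes, so their values are a description and carry no test. The question was which myeloid cells held more Il1b transcript in each library and whether its regulators differed alongside it.

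Each library came from the spleen of 1 untreated mouse aged 12 to 16 weeks, on a mixed background, whose cells were enriched for macrophages with magnetic beads against F4/80 after red cell lysis and read by droplet single-cell RNA sequencing. The SCD-labelled library is from a Berkeley mouse with sickle cell disease, Hba-/-, Hbb-/- and carrying the human hemoglobin transgene Tg(HBA-HBBs)41Paz. The wild-type-labelled library is from a control mouse that carries the same alleles in part, with 1 copy of Tg(HBA-HBBs)41Paz (hemizygous), Hbb+/- and Hba-/-. By these genotypes both mice lack mouse alpha-globin alleles and carry the human transgene. With 1 mouse in each condition there is no replicate, so genotype, animal and library cannot be told apart. Values are unique molecular identifiers (UMIs, 1 per captured transcript) summed over cells and given per 1000000 UMIs (CPM), and the ranges in brackets are exact 95% intervals that cover counting error only. Where a pair of values is given, that of the wild-type-labelled library comes before that of the SCD-labelled library.

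IL-1β is made by myeloid cells as an inactive precursor. Its gene is switched on by NF-κB after a priming signal, and a separate signal assembles an inflammasome, in which a sensor such as NLRP3 joins the adaptor ASC, encoded by Pycard, to activate caspase-1. Caspase-1 cuts the precursors of IL-1β and IL-18 and also gasdermin D, whose freed end forms membrane pores, whereas caspase-11, encoded by Casp4, cuts gasdermin D in response to intracellular lipopolysaccharide. The level of a transcript says nothing of whether the protein was cut or released. Red pulp macrophages (RPM) clear aged red cells in the spleen, and macrophages of erythroblastic islands (EBI) support developing erythroid cells.

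Several features of the libraries bear on what follows. The wild-type-labelled library held 145953464 UMIs in 24144 cell barcodes, of which 19419 were kept, and the SCD-labelled library held 73986356 UMIs in 15442 barcodes, of which 12280 were kept. Median depth was 4115 and 4570 UMIs per kept cell, and 65 kept barcodes occurred in both libraries. The beta-globin genes went against the labels: in erythroid-like cells, Hbb-bs stood at 163 CPM (157 to 169) in the wild-type-labelled library and at 62906 CPM (62562 to 63252) in the SCD-labelled library, although the SCD genotype is Hbb-/-. Hba-a1 was counted at 30798 and 34514 CPM in the same cells although both genotypes are Hba-/-, and whether the reads fall within the deleted parts was not tested. Directions below are therefore those between the libraries as labelled. Cells fell into 26 clusters and 25 of these were named by markers, giving 12 classes. RPM-like cells made up 24.7% of kept cells in the wild-type-labelled library and 13.1% in the SCD-labelled library, EBI-like cells made up 25.4% and 7.36%, and cDC2-like cells, a type of conventional dendritic cell (DC), made up 5.43% and 21.8%.

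The starts of 3 genes are shown because these genes differed in opposite directions or by different amounts between the libraries. The bases are those just before the RefSeq start on GRCm38.p6, read 5′ to 3′ on the strand of the gene, with the matches to 5 short motifs in capitals. For Casp4 the last 50 of the 250 bases before the start are not printed, since they reach another annotated transcript. The motifs, searched on both strands with overlaps allowed, were TATAAA (the TATA box), GGGA followed by 4 bases of any kind and CC for NF-κB, TGANTCA for AP-1, TTNNGNAA for C/EBP and GAGGAA for PU.1. They occur in 12.4%, 17.6%, 6.75%, 36.8% and 23.3% of 32851 upstream windows of the same length.
Il1b, chr2:129371140-129371389, minus strand: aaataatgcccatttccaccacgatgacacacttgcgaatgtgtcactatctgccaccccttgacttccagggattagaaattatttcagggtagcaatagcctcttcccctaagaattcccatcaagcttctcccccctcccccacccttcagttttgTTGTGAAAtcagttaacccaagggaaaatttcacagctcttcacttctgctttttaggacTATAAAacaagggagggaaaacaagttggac
Casp4, chr9:5308599-5308798, plus strand: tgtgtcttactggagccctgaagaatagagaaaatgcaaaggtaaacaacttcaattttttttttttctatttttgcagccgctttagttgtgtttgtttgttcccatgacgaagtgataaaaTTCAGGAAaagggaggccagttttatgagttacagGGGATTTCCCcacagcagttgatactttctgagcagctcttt
Il18, chr9:50554450-50554699, plus strand: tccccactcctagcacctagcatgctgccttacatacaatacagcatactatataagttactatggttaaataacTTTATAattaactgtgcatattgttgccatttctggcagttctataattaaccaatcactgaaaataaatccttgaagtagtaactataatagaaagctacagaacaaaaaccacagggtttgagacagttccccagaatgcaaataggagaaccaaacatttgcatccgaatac
The Il1b window held a C/EBP match at -91 to -84 and a TATA box at -31 to -26 from the start, and no match to the other 3 motifs. The Casp4 window held a C/EBP match and an NF-κB match, whose letters match on both strands. The Il18 window held only a TATA box on the other strand, at -175 to -170. RefSeq windows were found for 9 of the 10 genes and not used for Gsdmd, and Il1r2 had no match to any of the 5 motifs. A match is a description of letters and not a site of binding. In the annotation of the same build Il1b lies at chr2:129364570-129371139 on the minus strand, with Il1a close by on that strand at chr2:129299610-129309972, and Casp1 and Casp4 are neighbours at chr9:5298517-5307265 and chr9:5308828-5336783.

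Il1b was higher in all 7 myeloid classes of the SCD-labelled library, and the classes that had least of it in the other library differed most, though in mature DC-like cells the direction turned under some alternative settings. The level labelled wild-type is the denominator of each ratio, so a low level there and a large ratio go together in part by arithmetic. In RPM-like cells Il1b stood at 6.14 CPM (5.02 to 7.43) in the wild-type-labelled library and at 331 CPM (318 to 344) in the SCD-labelled library, a 53.9-fold difference. The log2 ratio was 5.75 (5.47 to 6.05). EBI-like cells, which carry macrophage and erythroid markers, held 14.3 CPM (12.9 to 15.8) and 215 CPM (201 to 229), a 15.03-fold difference. In both classes the intervals of the libraries lay far apart. The RPM-like cells of the wild-type-labelled library were mostly in clusters 11 and 1. Genes such as Marco and Cd5l led cluster 11 (3692 cells), and others such as Adam33 and Dock3 led cluster 1 (1045 cells). Those labelled SCD were almost all in cluster 15, led by Rgs1, Adamdec1 and the immune genes Iigp1 and Slpi. EBI-like cells likewise lay in clusters 3, 4, 6, 8 and 16 in the former and in cluster 19 in the latter. For these macrophages library and cluster cannot be told apart. Within cluster 15 alone, 52 cells labelled wild-type held 3 Il1b UMIs, 28.8 CPM (5.94 to 84.1), and 1549 cells labelled SCD held 332 CPM, a log2 ratio of 3.53 (1.98 to 5.81).

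**Figure D1:**
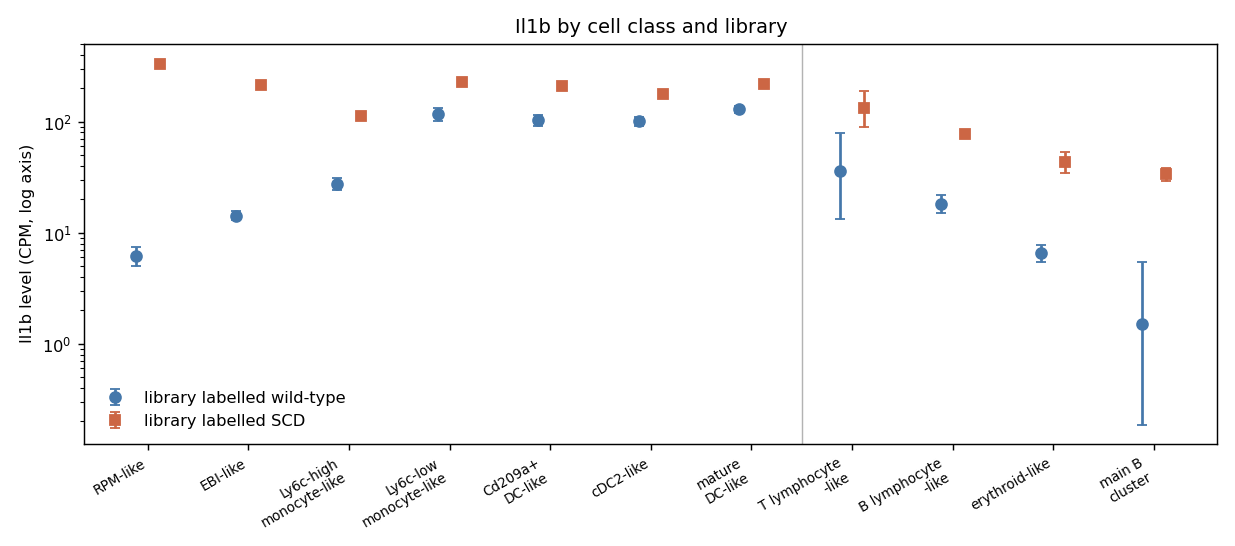
Il1b level in CPM on a log axis for each cell class in the wild-type-labelled library and the SCD-labelled library, with exact 95% counting intervals as bars. RPM-like cells have the lowest level of the 7 myeloid classes in the wild-type-labelled library, at 6.14 CPM, and the highest in the SCD-labelled library, at 331 CPM.

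Monocyte-like and DC-like cells already held Il1b in the wild-type-labelled library and differed less. Ly6c-high monocyte-like cells, the classical monocytes, had 27.4 CPM (24.3 to 30.8) and 114 CPM (106 to 122), a log2 ratio of 2.05 (1.85 to 2.25). In cluster 21, the larger of their clusters and the one with few marked doublets (4.08% of cells), the levels were 19.4 and 100.5 CPM. Ly6c-low monocyte-like cells, the patrolling monocytes, had 117 CPM (102 to 133) and 229 CPM (215 to 244), a log2 ratio of 0.98 (0.77 to 1.19). These monocyte classes were each mostly made of the same clusters in both libraries. Cd209a-positive monocyte-like DCs had 103 CPM (92.2 to 114) and 208 CPM (199 to 217), a log2 ratio of 1.02 (0.85 to 1.18). In cDC2-like cells the levels were 101 CPM (92.0 to 111) and 177 CPM (170 to 184), a log2 ratio of 0.81 (0.66 to 0.96).

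Mature DC-like cells, which carry the migration genes Ccr7 and Fscn1, had 129 CPM (121 to 137) and 217 CPM (203 to 231), and their direction depended on how the cells were handled. The log2 ratio of 0.75 (0.62 to 0.88) came to -0.21 when marked doublets were left out. Of the clusters in the class, cluster 17, in which Ccr7 and Fscn1 were leading genes, held 243 CPM (222 to 266) and 253 CPM (236 to 272), a log2 ratio of 0.06 (-0.11 to 0.23). Cluster 7, of which 44.9% of cells were marked as doublets and which had Hbb-bs among its leading genes, held 89.2 and 135 CPM. Most of the class came from cluster 7 in the wild-type-labelled library and from cluster 17 in the SCD-labelled library.

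The order of the classes differed between the libraries. In the wild-type-labelled library the 4 highest, mature DC, Ly6c-low monocyte, Cd209a-positive DC and cDC2, had intervals that overlapped from each to the next, and Ly6c-high monocytes, EBI and RPM followed with intervals apart. In the SCD-labelled library, RPM-like cells stood above all others, Ly6c-low monocytes, mature DCs, EBI and Cd209a-positive DCs overlapped from each to the next, and cDC2 and Ly6c-high monocytes were lowest. RPM-like cells contributed 3.13% of all Il1b UMIs in the wild-type-labelled library and 21.1% in the SCD-labelled library, where cDC2-like cells contributed another 21.1%.

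Il1b was also counted in cells that should not express it, which sets a background. In the main B cell cluster, whose leading genes include Cd79a and Pax5, Il1b stood at 1.52 CPM (0.184 to 5.50), from 2 UMIs, in the wild-type-labelled library and at 33.6 CPM (29.1 to 38.6) in the SCD-labelled library. Their ratio, 22.1-fold, had a log2 interval of 2.59 to 7.52. Erythroid-like cells held 6.55 CPM (5.49 to 7.75) and 43.3 CPM (34.8 to 53.4). These background levels were higher in the SCD-labelled library, and the RPM-like level of the wild-type-labelled library lay close to that of its erythroid-like cells, whose intervals overlap. In the SCD-labelled library each of the 7 myeloid classes lay above both. The whole B lymphocyte-like class held 18.3 and 78.3 CPM. Its cluster 23, of which 55.95% of cells were marked as doublets, held 29.9 and 133 CPM. T lymphocyte-like cells held 36.3 and 133 CPM, from 6 and 30 UMIs in 55 and 77 cells. In the SCD-labelled library this T lymphocyte-like level lay above the 114 CPM of Ly6c-high monocytes. Expressed as cells, 0.659% (0.435 to 0.958) and 20.6% (18.6 to 22.8) of RPM-like cells had an Il1b UMI once every cell was thinned to 1000 UMIs, against 0.198% (0.005003 to 1.10) and 2.38% (1.71 to 3.21) of the main B cluster. Without thinning the RPM-like shares were 1.73% and 44.9%, at median depths of 2130 and 4126 UMIs, and those of the main B cluster 0.391% and 8.27%, at 2148 and 2899 UMIs.

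The Il1b UMIs were unevenly spread among the macrophages. In RPM-like cells of the wild-type-labelled library 98.3% of cells had none and no cell had more than 3. In those labelled SCD 55.1% had none, 19.1% had 1, 9.19% had 5 or more and the highest cell had 42. The 162 cells with most Il1b, the top 10% of the class, held 60.7% of its UMIs. EBI-like cells showed the same kind of spread, with 95.4% and 63.4% of cells at 0 and the highest cell at 24 and 41 UMIs.

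**Figure D2:**
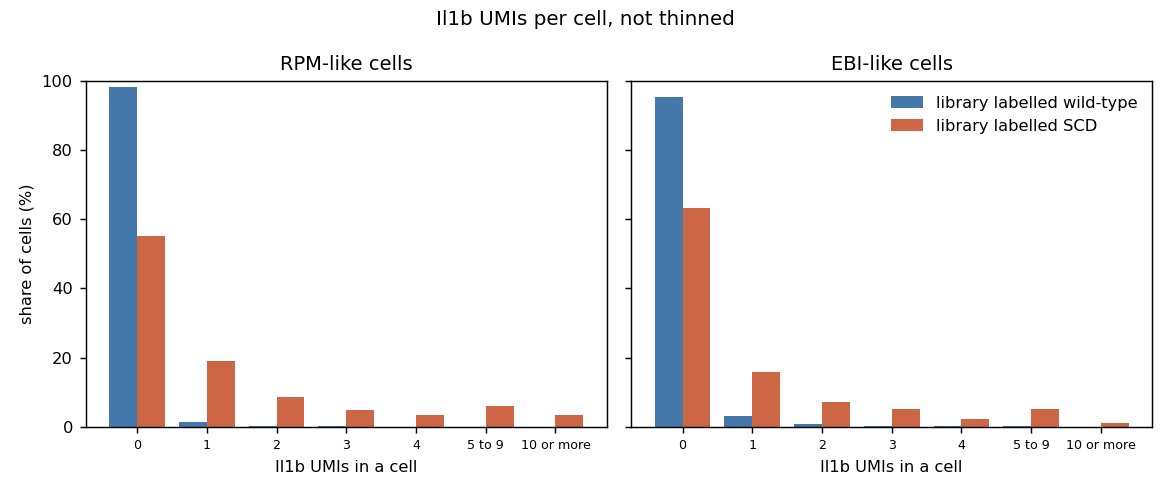
Share of cells in percent by the number of Il1b UMIs in the cell, without thinning, in RPM-like and EBI-like cells of the wild-type-labelled library and the SCD-labelled library. Cells without Il1b make up 98.3% and 55.1% of the RPM-like classes, and 3.29% of those labelled SCD hold 10 or more UMIs.

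Vcam1, an adhesion gene abundant in RPM, was used as a yardstick for macrophage RNA that reached other cells. A transcript that enters other classes from RPM alone would keep the same ratio to Vcam1 in every class. For Il18, all kept cells had 2.65 Il18 UMIs per 100 Vcam1 UMIs (2.61 to 2.70) in the wild-type-labelled library and 2.52 (2.43 to 2.60) in the SCD-labelled library. RPM-like cells had 2.47 and 2.04, and the main B cluster had 3.37 and 2.97. Among the 7 myeloid classes Il18 ran from 2.47 to 3.90 in the wild-type-labelled library and from 1.80 (1.53 to 2.10) in Ly6c-low to 5.26 (4.66 to 5.91) in Ly6c-high monocytes in the SCD-labelled library, intervals that lay apart. Over single clusters Il18 ran from 1.16 to 4.52 in the former and from 0.855 to 8.96 in the latter, with medians of 2.71 and 2.95. Il1a had medians over clusters of 0.299 (range 0 to 0.392) and 0.280 (range 0.0594 to 1.04). For Il1b the ratio in RPM-like cells was 0.0726 (0.0594 to 0.0879) and 4.05 (3.89 to 4.22). The other myeloid classes lay higher than RPM in the SCD-labelled library except EBI, at 3.87 (3.62 to 4.13), and reached 16.5 in cDC2-like and 17.9 in mature DC-like cells. The main B cluster of that library had 4.66 (4.03 to 5.37) and its erythroid-like cells 3.97 (3.17 to 4.91), close to the ratio in RPM-like cells. There the whole B lymphocyte-like class lay farther off, at 6.35 (5.92 to 6.80), as did T lymphocyte-like cells, at 25.6 (16.6 to 38.6). In the wild-type-labelled library the main B cluster had 0.153 (0.0185 to 0.554). Erythroid-like cells of that library had 0.333 (0.279 to 0.394), above its RPM-like cells. The source of Il1b outside the myeloid classes was not tested.

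**Figure D3:**
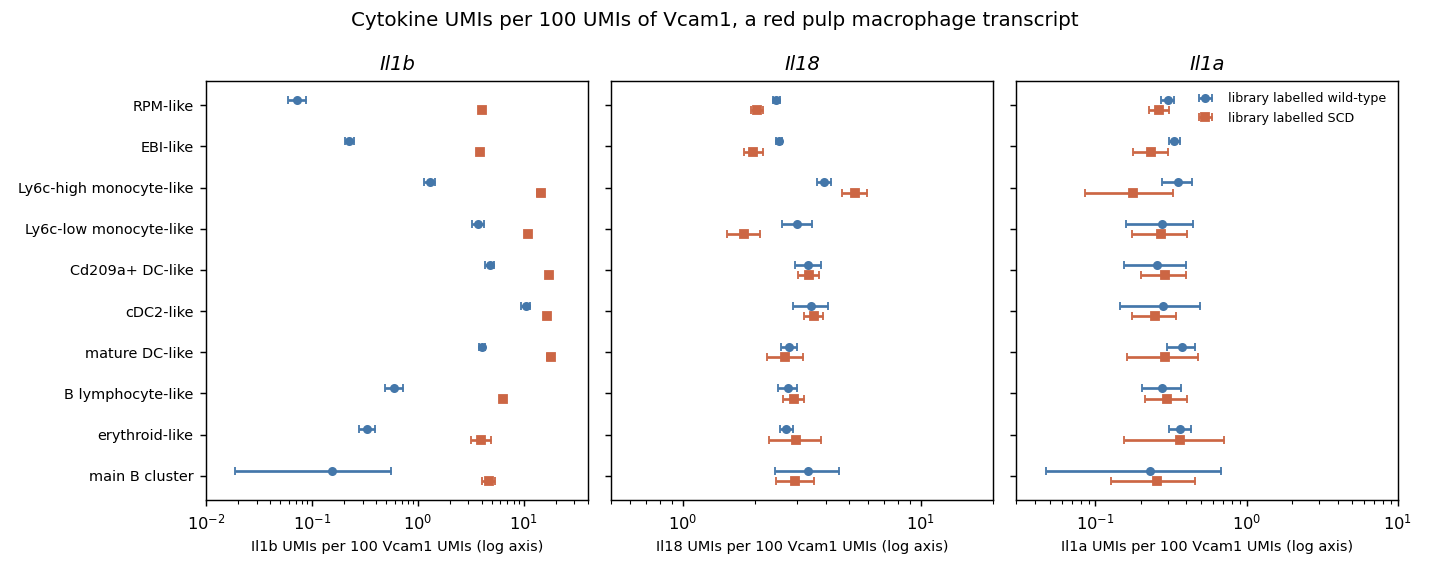
UMIs of Il1b, Il18 and Il1a per 100 Vcam1 UMIs on log axes in each class, with exact 95% counting intervals as bars, for the wild-type-labelled library and the SCD-labelled library. Among the myeloid classes Il18 runs from 2.47 to 3.90 in the wild-type-labelled library and from 1.80 to 5.26 in the SCD-labelled library, and Il1b runs from 0.0726 to 10.4 among the myeloid classes labelled wild-type and from 3.87 to 17.9 among those labelled SCD.

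Over all kept cells, Il1b stood at 31.3 CPM (30.2 to 32.4) and 181 CPM (177 to 184), a log2 ratio of 2.53 (2.48 to 2.59). In such sums a different share of a cell type and a different amount of RNA per cell cannot be told apart. When the class levels of the wild-type-labelled library were weighted by the class makeup of the SCD-labelled library, Il1b came to 62.1 CPM of the 181 counted. Of the 10 genes, 5 were past 2-fold higher in all kept cells (Il1b, Nlrp3, Casp4, Il1rn and Il1r2) and 1 was past 2-fold lower (Il1a), against 12.0% of 13015 genes higher and 9.78% lower. The 8 markers of neutrophils, which also make IL-1β, were lower in sum in the SCD-labelled library. They summed to 2638 CPM (4.14 to 1224 for single genes) and 109 CPM (0.108 to 53.6), with all 8 counted in each library, and their part in the Il1b ratio of all cells was not tested. Within RPM-like cells the same markers summed to 107 CPM, with 8 of 8 counted, and 55.3 CPM, with 7 of 8. The highest single marker there stood at 35.5 and 50.2 CPM, against the direction of the sums.

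Nlrp3, the sensor, differed most in RPM-like and EBI-like cells, as Il1b did. Its log2 ratio was smaller than that of Il1b in each of the 7 classes, though not within cluster 17 of the mature DCs. It stood at 13.4 CPM (11.8 to 15.3) and 60.6 CPM (55.2 to 66.5) in RPM-like cells, a log2 ratio of 2.17 (1.94 to 2.41), and at 12.9 and 47.2 CPM in EBI-like cells, a ratio of 1.87 (1.62 to 2.12). Within cluster 15 alone Nlrp3 had 38.4 and 61.0 CPM, from 4 and 449 UMIs, a log2 ratio of 0.67 (-0.70 to 2.55). The main B cluster held 5.33 and 5.01 CPM. Among monocytes and DCs the log2 ratios ran from 0.21 (-0.10 to 0.53) in mature DCs to 0.80 (0.42 to 1.20) in Ly6c-low monocytes, none past 2-fold. Within the mature DCs, cluster 17 had 10.4 CPM (6.33 to 16.0) and 26.3 CPM (20.8 to 32.8) from 20 and 78 UMIs, under the minimum of 100 for a count, with a log2 ratio of 1.34 (0.62 to 2.13), and cluster 7 had 35.1 and 49.1 CPM, a ratio of 0.48 (0.06 to 0.90). Among the 7 classes, cDC2-like cells had the highest Nlrp3 level in both libraries, 67.0 CPM (59.5 to 75.1) and 85.4 CPM (80.7 to 90.4).

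Pycard and Casp1, which complete the inflammasome, differed by less than 2-fold in every class. Pycard in RPM-like cells stood at 50.2 and 62.2 CPM, a log2 ratio of 0.31 (0.15 to 0.48). Among the macrophage, monocyte and DC classes Pycard was highest in Ly6c-high monocytes, at 150 and 116 CPM. Casp1 in RPM-like cells stood at 45.1 and 49.8 CPM, and the interval of its log2 ratio, -0.04 to 0.32, held 0. The main B cluster had 81.4 and 74.8 CPM of Pycard and 40.3 and 35.9 CPM of Casp1, levels no lower than several myeloid classes, so neither sets myeloid cells apart here. Both were lower in mature DC-like cells labelled SCD, with log2 ratios of -0.51 (-0.77 to -0.25) for Pycard and -0.52 (-0.84 to -0.21) for Casp1. In cluster 17 alone the ratio was -0.49 (-0.88 to -0.11) for Pycard and -0.21 (-0.70 to 0.28) for Casp1.

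**Figure D4:**
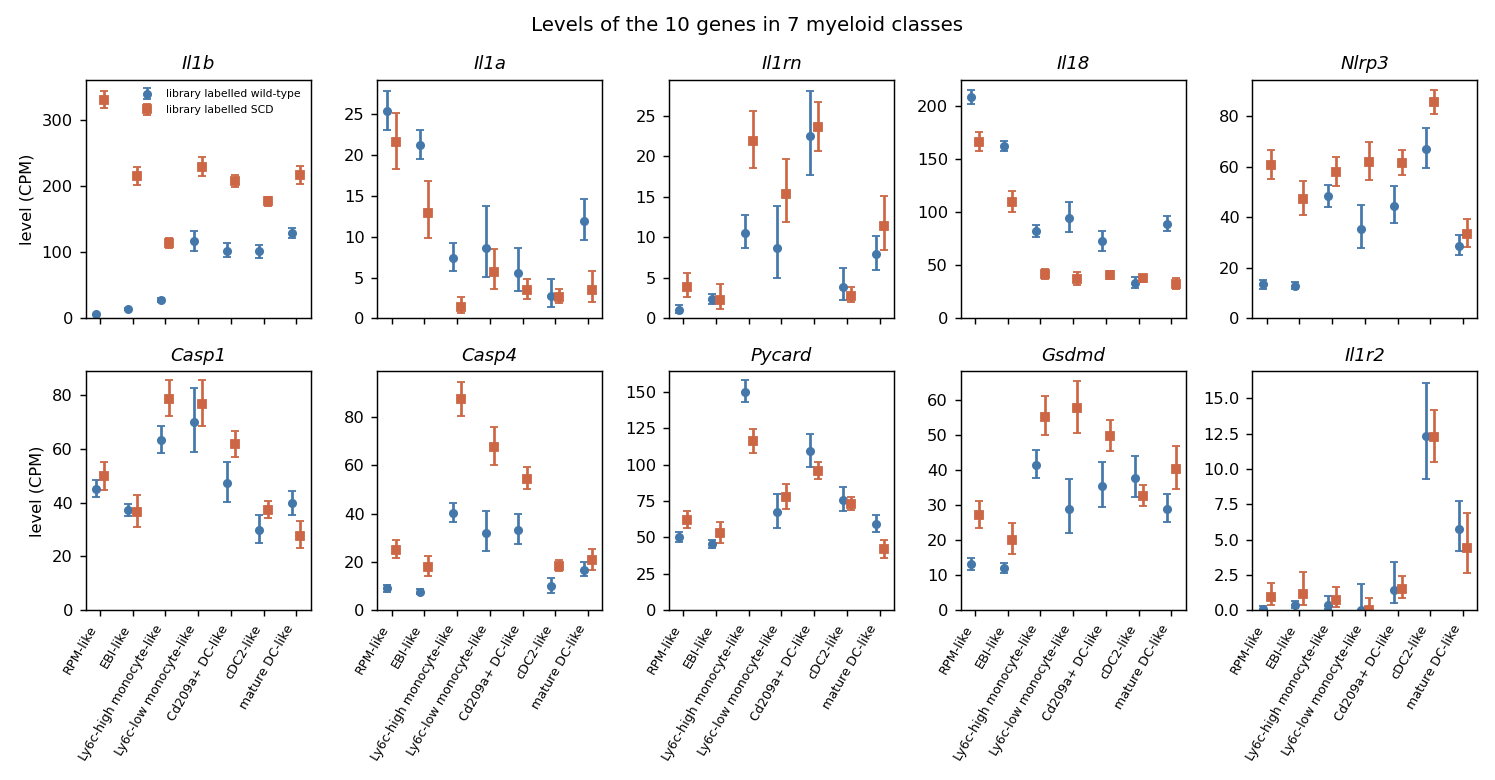
Level in CPM of each of the 10 genes in 7 myeloid classes of the wild-type-labelled library and the SCD-labelled library, with exact 95% counting intervals as bars and a separate linear axis from 0 for each gene. Il1b and Nlrp3 are low in the RPM-like and EBI-like classes labelled wild-type and not in those labelled SCD, whereas Il18 is highest in RPM-like cells of both.

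Casp4, whose protein responds to intracellular lipopolysaccharide, was higher in the SCD-labelled library across monocytes and macrophages. It stood at 9.003 CPM (7.64 to 10.5) and 25.0 CPM (21.6 to 28.9) in RPM-like cells, a log2 ratio of 1.48 (1.16 to 1.79), and at 40.3 and 87.3 CPM in Ly6c-high monocytes, a ratio of 1.11 (0.93 to 1.30). Ly6c-low monocytes had 32.0 and 67.5 CPM, a ratio of 1.08 (0.68 to 1.497). The main B cluster had 37.3 and 30.4 CPM, above the RPM-like level in each library. Gsdmd, the pore gene, had 13.2 CPM (11.49 to 14.99) and 27.0 CPM (23.4 to 31.0) in RPM-like cells, a ratio of 1.04 (0.76 to 1.32), and 28.9 and 57.6 CPM in Ly6c-low monocytes, a ratio of 0.99 (0.57 to 1.44). In cDC2-like cells Gsdmd had 37.7 and 32.5 CPM, a ratio whose interval held 0.

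The sister cytokines did not share the direction of Il1b. Il18, which needs caspase-1 for release as IL-1β does, stood at 209 CPM (202 to 216) and 167 CPM (157 to 176) in RPM-like cells, a log2 ratio of -0.33 (-0.42 to -0.23). This was the highest Il18 level of the 7 classes in both libraries, followed by EBI-like cells at 162 and 110 CPM. Ly6c-low monocytes had 94.9 and 37.4 CPM, a ratio of -1.34 (-1.66 to -1.03), and mature DCs 89.2 and 32.6 CPM, a ratio of -1.45 (-1.72 to -1.18). The summed RPM markers of all kept cells were also lower in the SCD-labelled library, 12547 and 7020 CPM, with all 7 counted in each, and their part in the Il18 values of other classes was not tested. Il1a, which is active without caspase-1, had 25.4 CPM (23.0 to 27.9) and 21.6 CPM (18.4 to 25.1) in RPM-like cells, with overlapping intervals, and 11.9 and 3.50 CPM in mature DCs, a ratio of -1.77 (-2.66 to -0.97).

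The antagonists were low in RPM-like cells. Il1rn, which encodes the receptor antagonist, was highest among the 7 classes in Cd209a-positive DCs, at 22.5 and 23.6 CPM, a log2 ratio of 0.07 (-0.31 to 0.46). In Ly6c-high monocytes Il1rn had 10.6 and 21.9 CPM, the latter within the interval of the Cd209a-positive DCs, a ratio of 1.05 (0.69 to 1.41). In RPM-like cells Il1rn rested on 18 and 29 UMIs, 1.05 CPM (0.624 to 1.66) and 3.88 CPM (2.60 to 5.57), too few for the minimum of 100 UMIs set for a ratio. Il1r2, the decoy receptor gene, was highest among the 7 classes in cDC2-like cells, at 12.3 and 12.2 CPM, a ratio of -0.01 (-0.46 to 0.46). These cells held 27.3% of all Il1r2 UMIs in the wild-type-labelled library and 71.0% in the SCD-labelled library, and RPM-like cells had 1 and 7 UMIs. Weighting the class levels labelled wild-type by the makeup of the other library gave 3.43 CPM of Il1r2 against the 3.71 counted there.

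**Figure D5:**
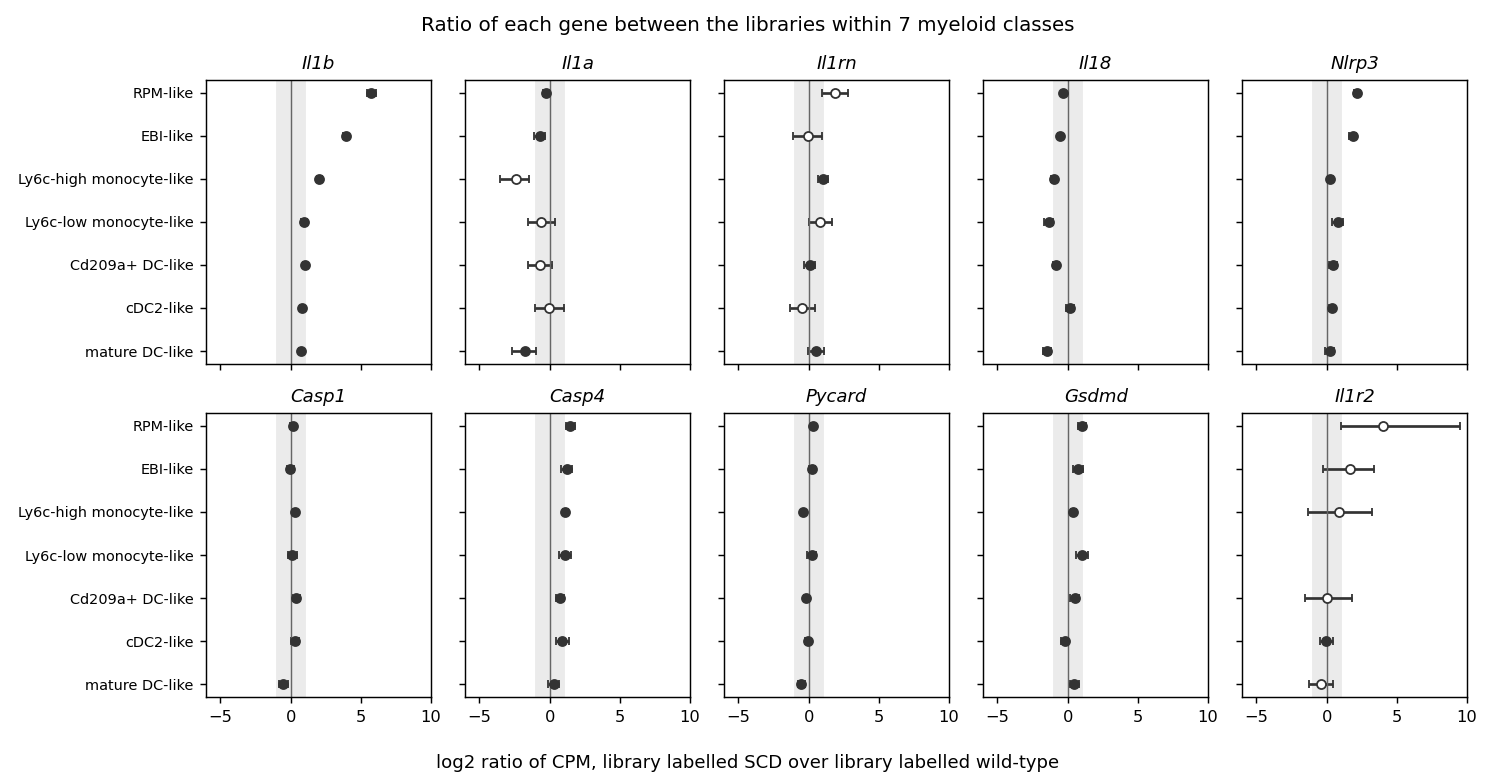
Log2 ratio of CPM, SCD-labelled library over the wild-type-labelled one, for each of the 10 genes within 7 myeloid classes, with 95% counting intervals as bars and the range within 2-fold shaded. Il1b in RPM-like cells lies farthest from 0, at 5.75, and Casp1 and Pycard lie within the shaded range in every class.

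Counted by class, genes past 2-fold were most numerous in RPM-like cells. There 4 of the 8 genes with at least 100 UMIs were past 2-fold higher (Il1b, Nlrp3, Casp4 and Gsdmd) and 0 lower, against 9.18% and 4.39% of genes with as many UMIs there. In EBI-like cells 3 of 8 were higher (Il1b, Nlrp3 and Casp4) and 0 lower, against 5.84% and 8.31%. In Ly6c-high monocytes 3 of 8 were higher (Il1b, Casp4 and Il1rn) and 0 lower, against 2.48% and 5.30%. In Ly6c-low monocytes 1 of 7 was higher (Casp4) and 1 lower (Il18), against 2.48% and 2.44%. In Cd209a-positive DCs 1 of 8 was higher (Il1b) and 0 lower, against 1.72% and 1.91%, and in cDC2-like cells 0 of 8 passed in either direction, against 1.20% and 2.00%. In mature DCs 0 of 9 were higher and 2 lower (Il18 and Il1a), against 4.77% and 9.22%. Since the genes were chosen with these libraries known, the shares describe them and support nothing.

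Within a class and library, cells with and without an Il1b UMI had overlapping intervals for the other 9 genes in all but 1 of the comparisons made, those with at least 50 cells that held Il1b. Of RPM-like cells labelled SCD, thinned to 1000 UMIs, 303 had an Il1b UMI and 1166 had none. Nlrp3 was counted in 5.94% (3.56 to 9.23) of the former and 5.83% (4.56 to 7.34) of the latter, and Casp4 in 2.31% (0.934 to 4.70) and 1.89% (1.19 to 2.84). The intervals overlapped for all 9 other genes in these cells. In Cd209a-positive DCs labelled SCD, Nlrp3 was counted in 12.4% (8.21 to 17.8) of 201 cells with Il1b and in 5.53% (4.28 to 7.02) of 1139 without, with intervals apart. Before thinning, 888 of 1611 RPM-like cells labelled SCD had no Il1b UMI, so the group without it includes cells that held some. The other genes were also counted in few cells, so overlap cannot show whether they vary with Il1b from cell to cell. Cells of a class come from 1 mouse, so these shares describe that library.

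The wider pathway is given by lists of genes. The NF-κB and priming genes, a list of subunits, kinases, inhibitors and receptors of the pathway that primes Il1b, had 9 of 22 past 2-fold higher and 0 lower over all kept cells, with a median log2 ratio of 0.83 against 0.18 for all genes. Of all genes with at least 100 UMIs, 12.0% were past 2-fold higher over all kept cells and 9.78% lower, and 9.18% and 4.39% in RPM-like cells, which is the background for each list count here and below. The 3 highest were Nfkbie, which encodes an inhibitor of NF-κB, from 27.3 to 77.5 CPM (log2 ratio 1.504), Nfkbid (1.45) and Rel (1.36), and the 3 lowest were the pattern receptor genes Tlr4 (-0.54) and Tlr2 (-0.20) and Irf8 (-0.05). In RPM-like cells 6 of 22 were higher and 0 lower, with a median of 0.49 against 0.20. Immediate early genes, which respond within minutes to stimulation or to tissue handling, had 7 of 14 higher and 0 lower, with a median of 1.07. The highest were Fosb (2.81), Nr4a1 from 42.9 to 178 CPM (2.06) and Klf2 (1.91), and the lowest Ier3 (-0.93), Jun (-0.18) and Btg2 (0.39). In RPM-like cells 8 of 13 were higher and 1 lower, with a median of 1.53, and the list summed to 449 and 1103 CPM. In the main B cluster that sum was 1563 and 1795 CPM. The part of handling in the Il1b values was not tested.

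Other sensors and partners of the inflammasome had 5 of 19 past 2-fold higher and 1 lower, with a median log2 ratio of 0.64. The highest were Nlrp10 (1.66), the guanylate-binding protein gene Gbp2, from 27.4 to 82.0 CPM (1.58), and the pyrin gene Mefv (1.41). The lowest were Mlkl (-1.16) and Ripk3 (-0.26), both of necroptosis, and Nek7 (0.08), whose protein binds NLRP3. In RPM-like cells 3 of 17 were higher and 0 lower. Pyroptosis and IL-1 processing genes had 0 of 10 higher and 4 lower, with a median of -0.51. The lowest were Elane (-4.91), Prtn3 (-4.33) and Ctsg (-4.10), granule proteases of neutrophils and their progenitors, and the other, named after its value was seen, was the lysosomal protease gene Ctsb, from 8660 to 3108 CPM (-1.48). Serpinb1a, which encodes an inhibitor of such granule proteases, had 0.38 and Casp12 had 0.37. Granulocyte-monocyte progenitor-like cells, whose markers include Elane, Prtn3 and Ctsg, numbered 209 and 6, and neutrophil-like cells 276 and 11. The part of these cell numbers in the ratios was not tested. In RPM-like cells 1 of 6 was higher and 0 lower.

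The receiving side of the pathway was mixed. IL-1 family receptors and signalling genes had 2 of 17 past 2-fold higher and 5 lower over all kept cells, with a median log2 ratio of 0.35. The highest were Sigirr (1.18), an inhibitory receptor gene, Il18r1 (1.02) and Il1rap (0.79), and the lowest the signalling receptor gene Il1r1, from 17.8 to 3.93 CPM (-2.18), Il1rl1 (-2.15) and Il18bp (-1.69), which encodes the soluble binder of IL-18. In RPM-like cells 1 of 12 was higher and 0 lower. Other inflammatory cytokines and mediators had 2 of 10 higher and 3 lower, with a median of -0.21. The highest were Ptgs2 (1.48), Tnf, from 6.81 to 13.8 CPM (1.02), and Tgfb1 (0.51), and the lowest were the chemokine genes Ccl2 (-1.58), Ccl3 (-1.28) and Cxcl2 (-1.01). In RPM-like cells 1 of 4 was higher and 1 lower.

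The genes whose levels followed Il1b most closely were sought among 9932 genes with at least 1000 UMIs, over 41 pairs of a cluster and a library. Pearson's r of log2(CPM + 1) was highest for Pik3r5 (0.82), which encodes a phosphoinositide 3-kinase subunit, Adgrl3 (0.79), Sh3bp1 (0.78), the DC integrin gene Itgax (0.78) and the transcription factor gene Irf1 (0.77). Tbc1d8, Phlpp1 and Hap1 (each 0.77) and Bcl2a1d and Rnf19b (each 0.76) completed the 10. Among the chosen genes r was 0.58 for Nlrp3, 0.55 for Il1rn, 0.50 for Il1r2 and Gsdmd, 0.32 for Casp4, 0.24 for Casp1, 0.18 for Pycard, -0.15 for Il1a and -0.22 for Il18. Within the wild-type-labelled library (25 clusters) and the SCD-labelled one (16), r was -0.10 and 0.38 for Il18. It was -0.09 and 0.35 for Il1a, 0.20 and 0.54 for Casp1, and 0.21 and 0.37 for Pycard. Nlrp3 had 0.565 and 0.675, Il1rn 0.59 and 0.50, Il1r2 0.63 and 0.31, Gsdmd 0.61 and 0.58, and Casp4 0.34 and 0.33. For the 10 genes most like Il1b, r ran from 0.59 to 0.89 in the former and from 0.47 to 0.80 in the latter. Clusters of a library share its depth, its free RNA and its mouse, so these values describe the 2 libraries and have no test.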

How the data were processed

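Per the file headers and the labels, the deposited values are UMI counts, not normalised, for each gene in each barcode. The authors made them with Cell Ranger (release 4.0.0 in the submitters' processing notes, release 3.1.0 in the file headers) on GRCm38.p6, with empty droplets removed, 1 library per mouse and no pooling. The notes also name Scanpy 1.6.0, Seurat 3.2.3 and R 4.4.

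From these counts, cells were kept if they had 500 to 5000 genes, if mitochondrial genes gave under 15% of their UMIs and if ribosomal-protein genes gave under 30%. Free RNA was not corrected for. Doublets were scored with Scrublet and left in. Its automatic threshold marked 13.7% of kept cells labelled SCD and 0 labelled wild-type, where the 10% with the highest scores were marked instead. Counts were scaled with scran 1.30.0 in R 4.3.3, and both libraries were clustered together with scanpy 1.11.5 and python-igraph 0.11.9 in Python 3.11.15 (2000 variable genes, 30 principal components, 15 neighbours, Leiden resolution 1). The 10 genes, the pathway lists, and hemoglobin and sex-linked genes, 125 listed in all, were left out of the clustering genes. A cluster was named from at least 3 markers present in at least 10% of its cells and 2-fold over the rest. Macrophage classes were instead named where the median macrophage marker stood 4.5-fold above the main B cluster, and as EBI-like where the erythroid markers also stood 2-fold above it. These limits were set after an initial clustering was seen, and the EBI-like and RPM-like classes are ranges cut from such levels.

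Levels are CPM of summed UMIs with exact Poisson intervals, shares of cells have exact binomial intervals, and ratios have counting intervals (scipy 1.17.1). To compare shares of cells, each cell was thinned to 1000 UMIs, and 1032 cells labelled wild-type and 281 labelled SCD that were shallower were left out. Ratios were read only for genes with at least 100 UMIs over both libraries. No test was possible, since each condition has 1 mouse and cells are not replicates. The interval code was tested on simulated data. The 10 genes and all lists were chosen with earlier results of these data known. Genes named from a list are its 3 highest and 3 lowest ratios over all kept cells, beside the 10 genes most like Il1b and the class markers. A gene that this rule names is not reported here. Alternatives varied the cell filters, doublets, scaling, clustering, thinning, CPM denominator, weighting of cells, free-RNA background, fold and UMI minimum.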

Additional observations from a re-analysis of the deposited data

Results flagged for a closer look

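The Il1b level of neutrophil-like cells labelled SCD was 1903 CPM (1445 to 2460), from 58 UMIs in 11 cells of median depth 1515 UMIs, a class too small there to enter any comparison. The 276 neutrophil-like cells labelled wild-type held 34.6 CPM (26.9 to 43.7), and the intervals lay apart. In the same cells Il1rn stood at 34.1 CPM (26.5 to 43.1) and 820 CPM (531 to 1211), and Il1r2 at 22.7 and 164 CPM.

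Casp1 had log2 ratios of opposite sign in different classes, 0.39 (0.13 to 0.64) in Cd209a-positive DC-like cells and -0.52 (-0.84 to -0.21) in mature DC-like cells. The latter value was -0.71 (-1.27 to -0.18) in cluster 7, where 44.9% of cells were marked as doublets, and -0.21 (-0.70 to 0.28) in cluster 17. Pycard likewise had 0.31 (0.15 to 0.48) in RPM-like cells and -0.51 (-0.77 to -0.25) in mature DC-like cells. With 1 library in each condition, the difference between these classes was not tested.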

How the results depend on the processing

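No paired analysis was possible because each condition has 1 library and no test was run. RPM-like cells had the lowest Il1b level of the myeloid classes in the library labelled wild-type and the highest in that labelled SCD under all 24 alternative values of their rank. Of 90 alternative Il1b log2 ratios 51 stayed within the counting interval of the reported value, 36 moved outside it and 3 reversed, all 3 in mature DC-like cells. The causes were not tested. Depth limits Il1rn, Il1r2 and Il1a in most classes.

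In mature DC-like cells the log2 ratio was -0.21 without doublets, -0.0723 under 10% mitochondrial UMIs and -0.0610 with all variable genes in the clustering. It was 0.27 with a minimum of 200 genes, 0.12 at resolution 0.5, 0.30 as a mean over cells and 0.52 less the main B cluster. In RPM-like cells it was 4.88 with 200 genes and 3.53 within cluster 15, an alternative chosen after seeing the data. In EBI-like cells it was 2.83 with 200 genes, 3.09 under 10% mitochondrial, 4.35 without doublets, 2.80 at resolution 0.5, 3.57 with all genes, 4.54 with libraries clustered separately and 3.52 as a mean over cells. In Ly6c-high monocytes it was 1.84 with 200 genes, 1.83 under 10% mitochondrial, 1.54 without doublets, 2.36 with total-count scaling, 1.34 with all genes, 2.34 clustered separately, 1.80 as a mean over cells and 1.63 less the main B cluster. In Ly6c-low monocytes it was 1.23 with 200 genes, 0.76 under 10% mitochondrial and 0.77 less the main B cluster. In Cd209a-positive DCs it was 0.49 with total-count scaling, 1.49 clustered separately, 0.77 as a mean over cells and 0.78 less the main B cluster. In cDC2-like cells it was 0.55 under 10% mitochondrial, 1.09 and 1.12 at resolutions 0.5 and 2, 1.14 with all genes and 0.53 less the main B cluster. Over all kept cells it was 2.38 under 10% mitochondrial, 2.23 as a mean over cells and 2.31 less the main B cluster.

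Of the 10 genes, 2 instead of 1 were past the fold lower at a fold of 1.5, with 200 genes, without doublets, as a mean over cells, less the main B cluster and, chosen after seeing the data, in cells with at least 1000 UMIs. Il18, at -0.999, sits at the limit. Among the lists, in alternatives chosen after seeing the data, 10 sensors, 4 receptor genes higher and 1 immediate early gene lower passed a fold of 1.5. Under 10% mitochondrial 1 receptor gene and 1 cytokine gene were higher and 1 immediate early gene lower, and as a mean over cells 1 receptor gene was higher. The share of all genes was computed under the main settings only. These alternative counts, for the 10 genes and for the lists, therefore have no background beside them. Subtraction of the main B cluster was not run for lists, and could be read for 7 of the 10 genes only, since Casp1, Casp4 and Pycard did not lie above it in both libraries. The Cd209a-positive class was not found under some clusterings.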
